A study of Mus musculus with 8 samples.

Results

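The liver of mice raised on a vitamin A deficient low fat diet was compared with the liver of mice raised on the matching vitamin A sufficient diet, using 4 of the 8 arrays of the series. These were the 2 arrays of the deficient group (VAD_VAD) and the 2 of the sufficient group (LF_LF), chosen by their labels, and every gene with a probe above a signal filter was tested. All samples came from male wild-type C57Bl/6J mice, an inbred strain, taken at 14 weeks of age after a fast of 4 h. In both groups the dams ate a breeder diet until embryonic day 10.5 and then a defined diet with 12% of energy from fat, and the offspring were weaned onto that same diet, so that the diet fields and the treatment protocol set the groups apart by vitamin A before and after weaning. The deficient dams therefore began the deficient diet in mid-gestation, and the diet fields give no group that was deficient in only 1 of the periods. The titles of the deficient samples name gestational deficiency alone; the diet fields, descriptions and protocol, which name both periods, are followed here. The offspring of both other groups ate, after weaning, a diet in which fat gave 60% of energy: the dams of BD_HF stayed on the breeder diet, and the dams of LF_HF were moved to the sufficient low fat diet at the same embryonic day. BD_HF serves below as a reference level beside the 2 groups of the comparison. It differed from both in fat after weaning and in the diet of its dams, so a likeness to 1 group is a description. The labels number the samples without saying that separate animals were used. The p-values therefore rest on the variation among these samples, which may be technical.

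Vitamin A arrives in the liver as retinyl esters, is stored mainly in stellate cells, and leaves as retinol bound to a plasma carrier protein. Retinol is oxidised to retinaldehyde and then to retinoic acid, which acts in the nucleus through retinoic acid receptors paired with retinoid X receptors. Among the genes these receptors switch on are those for the enzymes that destroy retinoic acid and that store retinol, which makes their RNA a common gauge of retinoic acid supply.

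Values are log2 levels with the 75th percentile of each array set to 0, and pairs of values are given as replicate 1, then replicate 2. Replicate 1 of every group lay on slide 1 and replicate 2 on slide 2. Between 58.5% and 64.2% of the probes were well above background on the 4 arrays compared, 0 spots were saturated, and precision is limited by how few arrays there were. The replicates correlated at 0.992 in the sufficient group and 0.977 in the deficient group. LF_HF replicate 1, outside the comparison but part of the fit that estimates the spread, stood apart, with 2707 outlier spots against 46 to 316 on the other arrays. The liver label was borne out by the hepatocyte markers: 16 of 16 measured were above background on all 4 arrays, and their summed signal was 5848 to 9547 times the array's 75th percentile, against 1.96 to 5.34 for pancreatic acinar and 0.800 to 1.10 for skeletal muscle markers. Alb, the serum albumin gene, read 10.12 and 10.09 in the sufficient group and 10.41 and 10.33 in the deficient group.

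Of 17259 genes tested, 18 rose (0.104%) and 91 fell (0.527%) in the deficient group, 109 in all (0.632%), by limma with Benjamini-Hochberg adjustment at an adjusted p under 0.05. On both deficient arrays 23 of the 91 genes were below background, so their measured differences are not exact. Those bright only in the sufficient group entered the test through that group, so their p-values are descriptions. The median difference of the 91 genes was −3.30 and ranged from −7.67 to −1.98, that of the 18 genes was 3.07 and ranged from 2.09 to 4.92, and the median over all genes was 0.09. Quantile scaling moved that overall median to −0.01. Before that scaling 56.7% of all genes tested had a positive difference, the share beside which the sign counts of the lists below are to be read. The calls depended on which arrays set the spread: 231 rose and 681 fell with the LF_HF group left out, which included all 109, and 11 rose and 46 fell with the slide as a block, with 53 genes called both ways. Quantile scaling gave 15 that rose and 90 that fell, but only 41 of these were among the 109, so the call of a gene named below is given with that scaling, or with the mean over a gene's probes, where it was lost. Leaving out any 1 array of BD_HF, LF_LF or VAD_VAD left 0 calls, with 781 to 1828 genes at an unadjusted p under 0.05, against 1772 with all arrays.

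**Figure D1:**
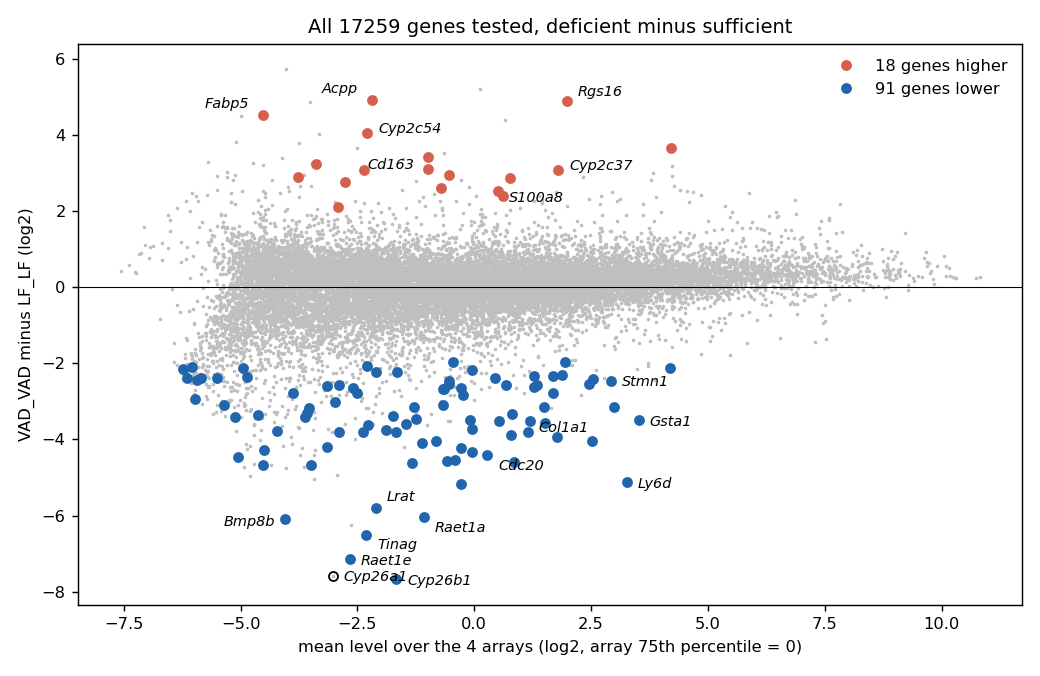
Each point is 1 of the 17259 genes, with its mean level over the 4 arrays compared on the horizontal axis (log2, 75th percentile of each array at 0) and the deficient minus sufficient difference on the vertical axis (log2). Blue marks the 91 genes that fell and red the 18 that rose; Cyp26a1, circled, is drawn at its measured −7.59, which is below background on the deficient arrays, and did not pass.

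Set beside the high fat groups, the median level of these genes set the sufficient low fat group apart from the other 3. The 91 genes that fell had a median level of 0.81 in LF_LF and −2.87 in VAD_VAD, and of −2.55 in both BD_HF and LF_HF. The 18 genes that rose had a median of −2.62 in LF_LF and 0.58 in VAD_VAD, against −0.20 in BD_HF and −0.33 in LF_HF. These genes were chosen by the first comparison, so their medians are a description. Tested in the same fit, VAD_VAD minus BD_HF, which shares its deficient arrays with the comparison above, gave 0 calls (0%), with 1015 genes at an unadjusted p under 0.05 and a smallest adjusted p of 0.0734. With the LF_HF group left out, 56 genes rose and 49 fell in VAD_VAD against BD_HF, and that fit is named wherever it is used below.

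**Figure D2:**
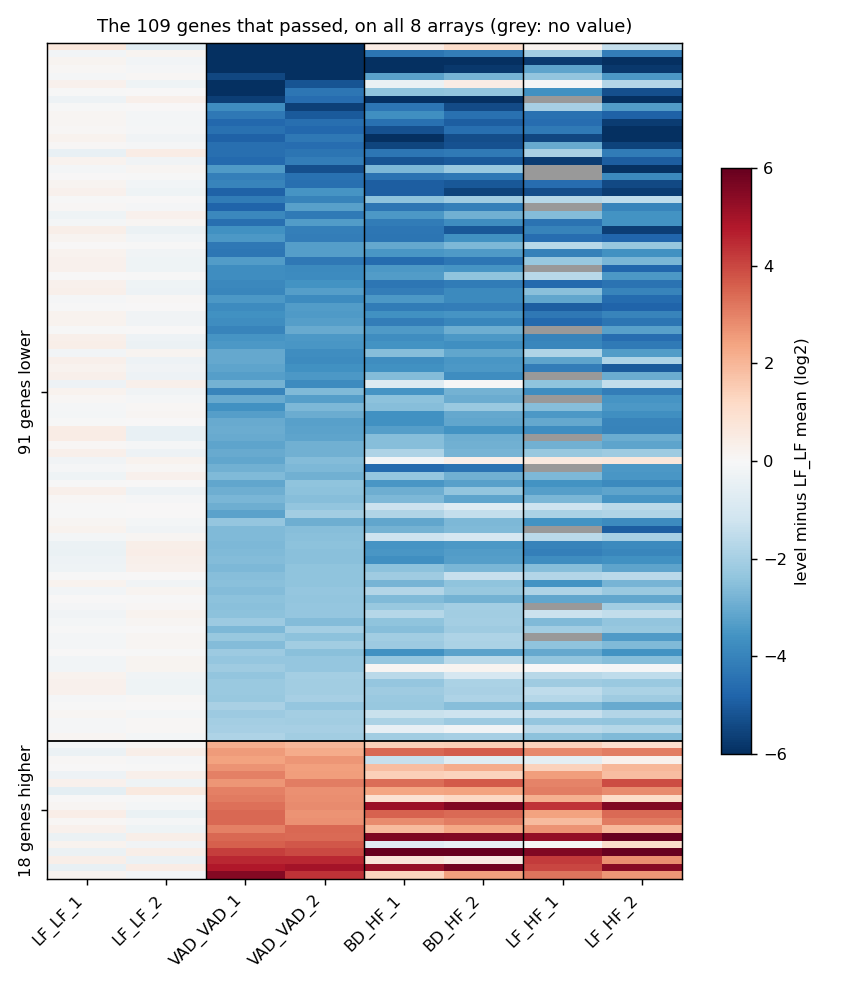
The 109 genes that passed are the horizontal lines, ordered by their difference, and the 8 arrays are the columns; colour gives the level minus the mean of the LF_LF arrays (log2, blue lower and red higher), and grey marks a spot with no value. Blue prevails among the 91 lower genes on the BD_HF and LF_HF arrays too, where their median level was −2.55.

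Single genes that dispose of retinoic acid or store retinol were among those that moved furthest. Cyp26b1, which encodes an enzyme that oxidises retinoic acid to inactive products, read 2.82 and 1.52 on the sufficient arrays and −4.15 and −6.87 on the deficient arrays, where only replicate 1 was above background. It fell by 7.67 as measured (SE 0.947, limma adjusted p = 0.0261, or 0.0535 with quantile scaling), and by 6.78 with the array below background at its lowest signal well above background. Both deficient arrays lay far below both sufficient arrays, while BD_HF read 2.61 and 3.21. Cyp26a1, the main enzyme of this kind in adult liver, read 0.59 and 0.95 on the sufficient arrays and −6.50 and −7.15 on the deficient arrays, below background on both. For such genes a bound is given, the mean of the bright group against the dim group with each of its arrays raised to the lowest signal well above background on it. Cyp26a1 was at least 59.2-fold lower, but its spread in the other groups was wide and it did not pass (adjusted p = 0.0640, or 0.00516 without the LF_HF group); BD_HF read −0.53 and 1.97.

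Lrat, whose enzyme esterifies retinol for storage and which marks stellate cells, read 1.08 and 0.53 on the sufficient arrays and −5.63 and −4.38 on the deficient arrays, of which 1 was above background. It fell by 5.81 as measured (SE 0.662, adjusted p = 0.0203, or 0.0535 with quantile scaling) and by 5.58 with the dim array at its bound. As with Cyp26b1, the BD_HF arrays, at 0.42 and 1.26, were as high as the sufficient ones. Of the 6 genes tested for retinoic acid clearance and retinol esterification, 2 fell and 4 did not pass, with a median of −2.97, or −1.43 with normexp background correction. Only 3 of the 6 were above background on all 4 arrays, so the median depended on the filter. With a stricter filter, both groups above background, 3 were tested, 0 fell and the median was 0.29. With quantile scaling 1 rose and 0 fell. In mm9, the build of the file headers, the probe of Cyp26b1 lay at chr6:84521952-84522011 and that of Lrat at chr3:82699609-82699668.

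Rarb encodes a retinoic acid receptor that retinoic acid itself induces. It read 0.87 and 0.74 on the sufficient arrays and −3.21 and −2.42 on the deficient arrays, a difference of −3.63 that did not pass (SE 0.603, adjusted p = 0.0583, or 0.00580 without the LF_HF group). The BD_HF arrays read −0.52 and 0.27, between the other groups. None of the 17 retinoid receptors and coregulators passed, and their median difference was 0.06, or −0.15 with quantile scaling. Rxra, the main retinoid X receptor of hepatocytes, differed by 0.65 (SE 0.380) and Rara by 0.93 (SE 0.800).

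Cyp26a1 and Rarb share a retinoic acid response element of a known form in their promoters, which is shown because both genes were low on the deficient arrays. The element is a direct repeat of a 6-base site, with 5 bases between the copies. A copy could be AGTTCA, the more general AGGTCA, the site GGTTCA seen in Rarb, or else GGGTCA, and the repeat was searched on both strands of RefSeq promoters (GRCm38.p6, 250 bases before to 50 after each start). It was found in 32 of 32851 promoters (0.0974%). The 150 bases before each start are printed from 5′ to 3′ on the gene's strand, with the repeat in capitals; the Cyp26a1 stretch is chr19:37697658-37697807 on the plus strand, with the repeat read on the opposite strand, and the Rarb stretch is chr14:16575477-16575626 on the minus strand.
Cyp26a1: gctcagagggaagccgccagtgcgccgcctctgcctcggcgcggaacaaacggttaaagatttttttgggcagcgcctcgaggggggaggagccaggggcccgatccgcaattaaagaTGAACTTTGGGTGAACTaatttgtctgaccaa
Rarb: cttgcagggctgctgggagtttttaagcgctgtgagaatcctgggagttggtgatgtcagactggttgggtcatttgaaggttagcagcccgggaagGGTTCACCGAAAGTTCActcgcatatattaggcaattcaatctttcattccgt

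The repeat lay at positions −32 to −16 in Cyp26a1 and −53 to −37 in Rarb, counted back from the start. Among the 17259 genes tested, 11749 had a promoter in the table and 8 of these held the repeat (0.0681%). The other 6 genes differed by −0.85 to 2.26 and none of the 8 passed, 4 being lower and 4 higher, with a median of −0.10. It was found in 0 of the 68 fallen genes with a promoter in the table. A match is a description of the letters, and a missing match says only that they are not in this window.

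Of the 17 retinoic acid targets tested, 3 fell, 15 differences were negative and the median was −0.90. Only 12 were above background on all 4 arrays. With the stricter filter 12 were tested, 2 fell and the median was −0.58, and with quantile scaling 0 of the 17 fell. The next 2 genes are counted in the main fit. Cyp26b1 and Lrat, described above, were among those that fell. Tgm2, a transglutaminase induced by retinoic acid in many cells, differed by −1.04 (SE 0.333, adjusted p = 0.307). Dhrs3, a retinaldehyde reductase and another known target, read 4.43 and 4.52 against 3.84 and 4.78, so its deficient arrays lay on either side of the sufficient ones.

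The 8 genes for retinoid binding and uptake had a median of 0.26 that became −0.11 with quantile scaling. Of these, 1 rose, Fabp5, a carrier of fatty acids that also delivers retinoic acid: it was below background on both sufficient arrays (−6.44 and −7.13) and on both BD_HF arrays (−6.06 and −6.30), and read −2.28 and −2.24 on the deficient arrays. The rise was at least 9.74-fold (adjusted p = 0.0177, or 0.0535 with quantile scaling and 0.0642 with normexp correction). LF_HF read −2.60 and −3.98, so Fabp5 did not set the deficient group apart from every other group. Rbp7, a retinol carrier typical of fat and endothelium, read −2.88 and −2.79 on the sufficient arrays and was below background on the deficient arrays, a difference of at least 4.88-fold (adjusted p = 0.248, or 0.00157 without the LF_HF group). Rbp4, the plasma retinol carrier made by hepatocytes, read 9.65 and 9.46 against 10.05 and 9.81, a difference of 0.37 (SE 0.398, adjusted p = 0.790) whose sign turned with quantile scaling.

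None of the 24 retinol and retinaldehyde dehydrogenases and reductases passed, with a median of 0.46. Retsat, a retinol saturase, read 4.22 and 4.36 on the sufficient arrays and 6.76 and 6.08 on the deficient arrays (difference 2.13, SE 0.512, adjusted p = 0.179, or 0.0123 without the LF_HF group). Both deficient arrays were above both sufficient arrays, as were those of 32.5% of all genes. Adh1, the abundant alcohol dehydrogenase, differed by −0.08 (SE 0.387) and Aldh1a1, a retinaldehyde dehydrogenase, by −0.03 (SE 0.422), and the groups overlapped for both; the fit of Aldh1a1 lacked BD_HF replicate 2, an outlier spot. Cyp2c39, an enzyme able to hydroxylate retinoic acid, read −0.76 and −0.82 against 1.15 and 1.09 (difference 1.91, SE 0.379, adjusted p = 0.0993, or 0.00864 without the LF_HF group). None of the 5 genes for hydrolysis of retinyl esters passed, with a median of 0.30; Ces1d, a carboxylesterase with this activity, differed by 1.10 (SE 0.385).

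**Figure D3:**
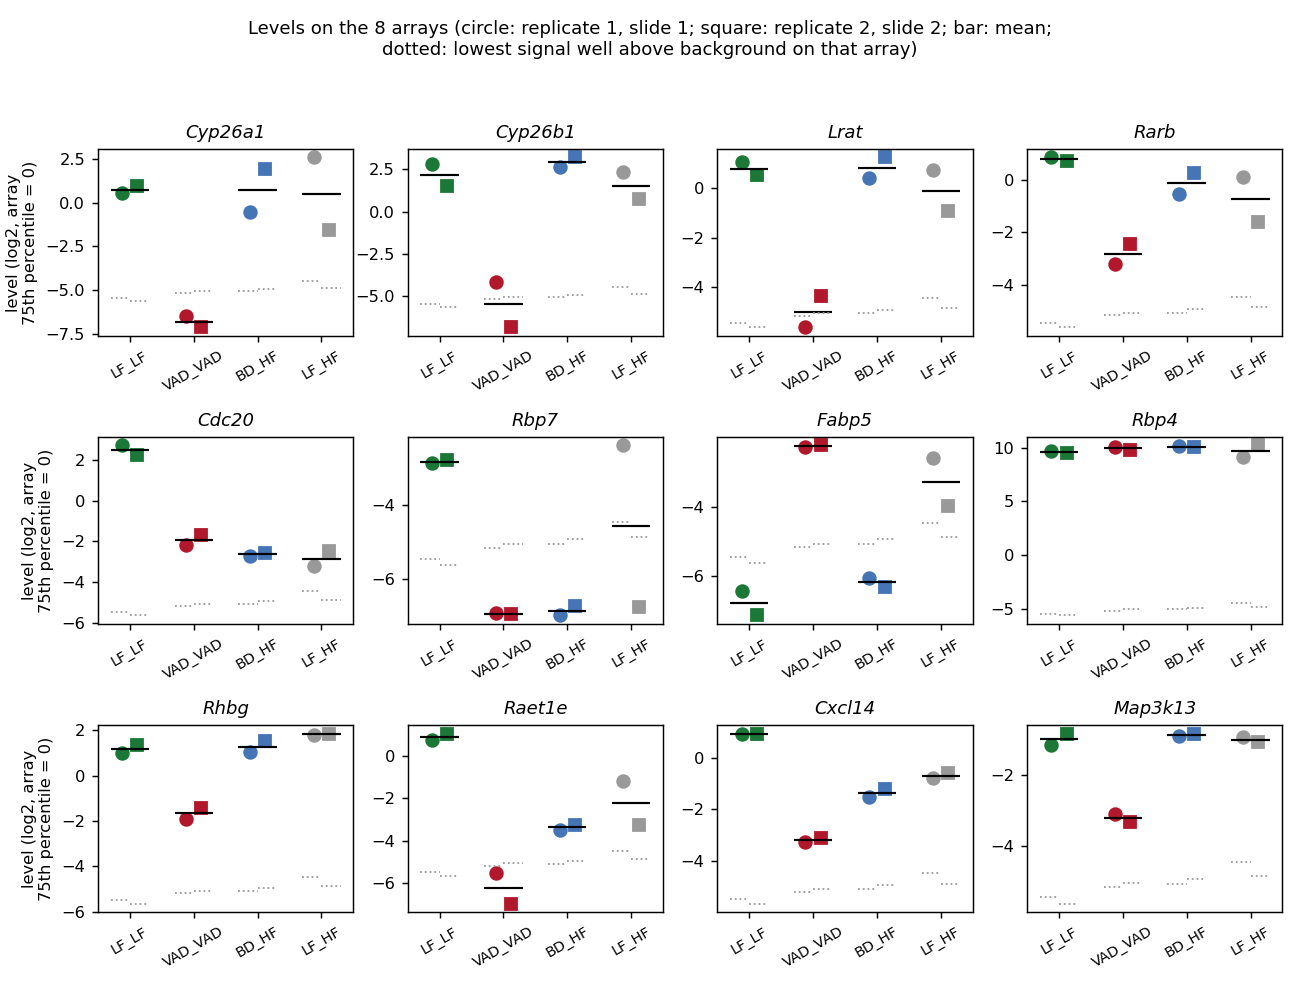
Each panel shows 1 gene on the 8 arrays, with the level on the vertical axis (log2, 75th percentile of each array at 0), circles for replicate 1, squares for replicate 2, a bar for the mean and a dotted line for the lowest signal well above background on that array. Cyp26a1, Cyp26b1, Lrat, Rhbg and Map3k13 are low on the VAD_VAD arrays while BD_HF is level with LF_LF, whereas Cdc20, described further on, is high on the LF_LF arrays alone.

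Some genes outside the retinoid lists shared the pattern of Lrat, low in the deficient group while BD_HF stayed near the sufficient level. In the fit without the LF_HF group, 8 of the 91 fallen genes differed from BD_HF, where 56 of all 17259 genes rose and 49 fell. This count measures a difference from BD_HF, not how near BD_HF was to the sufficient level. It holds Cxcl14 and Raet1a, for which BD_HF lay between the groups. It leaves out Krt23, for which BD_HF was near the sufficient level. Pappa, 1 of the 8, was higher than in BD_HF (1.78). Both comparisons share the deficient arrays. Rhbg, an ammonium transporter of pericentral hepatocytes, read 0.98 and 1.37 on the sufficient arrays, −1.92 and −1.42 on the deficient arrays, and 1.03 and 1.53 on the BD_HF arrays. It fell by 2.84 (SE 0.352, adjusted p = 0.0261), and against BD_HF it differed by −2.95 (adjusted p = 0.0223 without the LF_HF group). Of the 20 pericentral and Wnt genes it was the 1 that fell; the median of that list was 0.14. Map3k13, a kinase of stress signalling, and Hic1, a transcriptional repressor known from stellate and other mesenchymal cells, were singled out after their values were seen. Map3k13 read −1.14 and −0.83 against −3.11 and −3.32 and fell by 2.23 (adjusted p = 0.0346, or 0.0560 with the slide as a block and 0.0535 with quantile scaling). Hic1 read 0.49 and 0.59 against −1.44 and −1.43 and fell by 1.98 (adjusted p = 0.0435, or 0.0642 with the slide as a block and 0.0688 with quantile scaling). On the BD_HF arrays Map3k13 read −0.89 and −0.84 and Hic1 0.05 and 0.34, close to the sufficient arrays. On the LF_HF arrays Map3k13 read −0.94 and −1.07, but Hic1 read −1.02 and −1.17, nearer the deficient level.

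Against BD_HF, in the fit without the LF_HF group, the differences of the retinoid genes were −8.42 for Cyp26b1 (adjusted p = 0.0233), −5.84 for Lrat (adjusted p = 0.0145) and −2.70 for Rarb (adjusted p = 0.0483). Cyp26a1, below background on both deficient arrays, was at least 57.3-fold lower than in BD_HF (adjusted p = 0.0205).

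Of the lists, that of mitosis and the spindle held the most fallen genes. Of 41 genes of mitosis and the spindle, 12 fell and 29 did not pass, 39 differences were negative, and the median was −2.97, or −2.70 with signals below background at their bound. Without the LF_HF group 33 fell, and with the slide as a block 10. With quantile scaling 8 fell, of which only Iqgap3 was among the 12, the adjusted p of the other 11 being 0.0546 to 0.396. With the mean over a gene's probes 10 fell, 9 of them among the 12 (all but Cdkn3, Cenpe and Kif4). Within slide 1 the median was −3.31 and within slide 2 it was −2.86. The groups did not overlap, with the deficient arrays lower, for 38 of the 41, against 25.5% of all genes (58% in either direction). Only 24 of the 41 were above background on all 4 arrays. The others could enter through a group where they were bright, so the counts over all 41 are a description. With the stricter filter, both groups above background, 24 were tested and 14 fell, 10 of them among the 12, with a median of −2.84. The size of the shift depended on the background correction: normexp correction gave a median of −0.99.

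Cdc20 activates the ubiquitin ligase that starts anaphase. It read 2.71 and 2.26 on the sufficient arrays and −2.20 and −1.67 on the deficient arrays, and fell by 4.42, or 21.4-fold (SE 0.388, adjusted p = 0.0152). Mki67, the proliferation marker Ki-67, read 1.97 and 1.33 against −1.87 and −1.80 and fell by 3.49 (SE 0.366, adjusted p = 0.0168). The mitotic cyclin gene Ccnb2 read 2.48 and 2.08 against −1.46 and −1.01 and fell by 3.51 (SE 0.339, adjusted p = 0.0158). Each of these was about as low in BD_HF, where Cdc20 read −2.71 and −2.55, Mki67 −2.06 and −1.81, and Ccnb2 −1.89 and −1.62.

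The other 9 that fell were Birc5, a subunit of the chromosomal passenger complex (−3.53), Cdkn3, a phosphatase of cyclin-dependent kinases (−4.56), Ect2, which sets the cleavage furrow (−3.81), Cenpe, a kinetochore motor (−3.47), Prc1, a spindle midzone bundler (−3.10), Aurka, a spindle pole kinase (−2.68), Kif4, a chromosome motor (−2.60), and, as bounds, Iqgap3 (at least 7.61-fold) and Knstrn, a spindle adaptor (at least 14.3-fold). Aurka and Kif4 did not pass with the slide as a block (adjusted p = 0.0619 and 0.0669), and the fit of Kif4 lacked LF_HF replicate 1, an outlier spot. Against BD_HF the median of the 41 genes was 0.35 and none passed. Genes of cell division outside the list, picked after their values were seen, fell too: Cdca3 by 3.73, Cdca8 by 2.17 and Ncapg, a condensin subunit, by 3.61. With the slide as a block Cdca8 and Ncapg did not pass (adjusted p = 0.0713 and 0.0619), and with quantile scaling none of the 3 did (0.0969 to 0.263); with the mean over probes Cdca8 and Ncapg did not (0.241 and 0.113).

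Promoters of 3 of these genes are shown because many genes expressed late in the cell cycle carry a short element, TTTGAA, with CCAAT boxes nearby. Both motifs were searched on both strands of the same windows, and a gene counted if any of its promoters matched. TTTGAA was found in 25 of the 35 list members with a promoter in the table (71.4%). Of all genes tested that had a promoter there, 15.2% held it. CCAAT was found in 23 of 35 (65.7%), against 42.4% of those genes. Among the 12 that fell, 9 held TTTGAA and 9 held CCAAT. The 150 bases before the start are printed on the gene's strand, from RefSeq (GRCm38.p6), with both motifs in capitals: Cdc20 from chr4:118437344-118437493, Mki67 from chr7:135716380-135716529 and Ccnb2 from chr9:70421555-70421704, all on the minus strand.
Cdc20: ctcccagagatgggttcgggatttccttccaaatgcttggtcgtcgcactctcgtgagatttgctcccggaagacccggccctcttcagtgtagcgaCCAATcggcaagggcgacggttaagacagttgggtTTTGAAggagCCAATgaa
Mki67: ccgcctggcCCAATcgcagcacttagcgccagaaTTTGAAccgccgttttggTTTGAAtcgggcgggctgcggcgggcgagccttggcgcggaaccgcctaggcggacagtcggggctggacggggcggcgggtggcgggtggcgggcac
Ccnb2: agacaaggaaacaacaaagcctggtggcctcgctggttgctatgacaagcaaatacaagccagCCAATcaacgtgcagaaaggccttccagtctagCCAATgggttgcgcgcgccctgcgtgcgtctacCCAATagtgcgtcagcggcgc

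In Cdc20, TTTGAA lay at positions −18 to −13, with CCAAT at −53 and −8. Mki67 held TTTGAA at −116 and −98. Ccnb2 held 3 CCAAT boxes in the printed stretch, and its TTTGAA matches, at −167 and 4, lay outside it. The genes of DNA replication and the G1/S step, of which 34 were tested, had a median of −0.62. Mcm2, a subunit of the replicative helicase, read −1.50 and −1.04 against −2.54 and −2.35 (adjusted p = 0.510). In bulk liver, fewer cells of a type and less RNA per cell cannot be told apart, here and for every cell type below.

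A few collagen genes fell. Of 20 tested, 3 fell and 17 did not pass, 17 differences were negative and the median was −1.20, or −0.87 with signals below background at their bound; 10 fell without the LF_HF group and 2 with the slide as a block. With the mean over a gene's probes 0 fell, and the adjusted p of the 3 was 0.127 for Col1a1, 0.152 for Col3a1 and 0.427 for Col6a3. Col1a1, a chain of type I collagen, the main fibril of scar tissue, read 3.23 and 2.87 on the sufficient arrays and −0.41 and −1.11 on the deficient arrays, and fell by 3.81, or 14.0-fold (SE 0.401, adjusted p = 0.0168, or 0.0547 with quantile scaling). Col3a1, of type III collagen, read 4.45 and 4.67 against 1.26 and 1.57 and fell by 3.15 (SE 0.337, adjusted p = 0.0177). Col6a3, of the microfibrillar type VI, fell by 2.63 (SE 0.347, adjusted p = 0.0334, or 0.0523 with the slide as a block). Col1a2, the partner chain of Col1a1, read 5.44 and 4.74 against 3.04 and 2.25 and did not pass (difference −2.45, adjusted p = 0.0612, or 0.0182 without the LF_HF group). On the BD_HF arrays Col1a1 read −1.33 and −0.59, near the deficient level, and against BD_HF the list median was 0.07.

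Of 29 other matrix genes, 1 fell, 25 differences were negative and the median was −1.25, or −0.62 with normexp correction; without the LF_HF group 10 fell. The one was Tinag, a basement membrane protein, which read 1.12 and 0.77 on the sufficient arrays and was below background on both deficient arrays. It fell by at least 67.1-fold (adjusted p = 0.0168). Among 39 ligands, receptors and antagonists of the TGF-beta and BMP families, 1 fell, Bmp8b, from −0.94 and −1.07 to below background, at least 17.4-fold (adjusted p = 0.0261). The median of those 39 was −0.15. Tinag and Bmp8b passed the signal filter only through the sufficient group, where they were bright, so their p-values are descriptions. Neither was tested with the stricter filter, both groups above background. Tinag was also below background on all BD_HF and LF_HF arrays.

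Stellate and fibroblast markers gave mixed values. Of 18, 4 fell: Lrat, Ngfr, the low affinity nerve growth factor receptor (−2.65), Pdgfrb, a growth factor receptor of stellate cells and pericytes (−2.39), and Cygb, the stellate cell globin (−2.32). Lrat was the 1 that also passed with the slide as a block, and 2 of the 4 passed with quantile scaling (Ngfr and Cygb) and 2 with the mean over probes (Lrat and Pdgfrb). The list median was −0.47, and its summed signal was 273 and 230 times the 75th percentile on the sufficient arrays and 253 and 173 on the deficient arrays. Des, the intermediate filament of stellate cells, read −2.27 and −1.87 against −2.55 and −2.89 (difference −0.65, adjusted p = 0.625, fitted without LF_HF replicate 1, an outlier spot). The part of stellate cell number in the values of Lrat was not tested.

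Cholangiocyte markers, which belong to bile duct cells, gave mostly negative differences: of 12, 1 fell, 11 differences were negative, the median was −1.46, or −0.48 with normexp correction, and 5 fell without the LF_HF group. Krt23, a keratin of ducts and injured liver, read 2.15 and 2.77 against −0.40 and −1.33 and fell by 3.32 (SE 0.511, adjusted p = 0.0469, or 0.0642 with the slide as a block, 0.0535 with quantile scaling and 0.0677 with the mean over probes), while BD_HF, at 1.67 and 2.46, was near the sufficient level. The LF_HF arrays, at 0.06 and 0.97, lay between the 2 groups compared. Krt19, the usual duct keratin, read −0.60 and −0.35 against −2.74 and −2.35 (difference −2.07, adjusted p = 0.108, without the outlier spot of LF_HF replicate 1), and BD_HF was near the deficient level at −1.88 and −2.66.

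**Figure D4:**
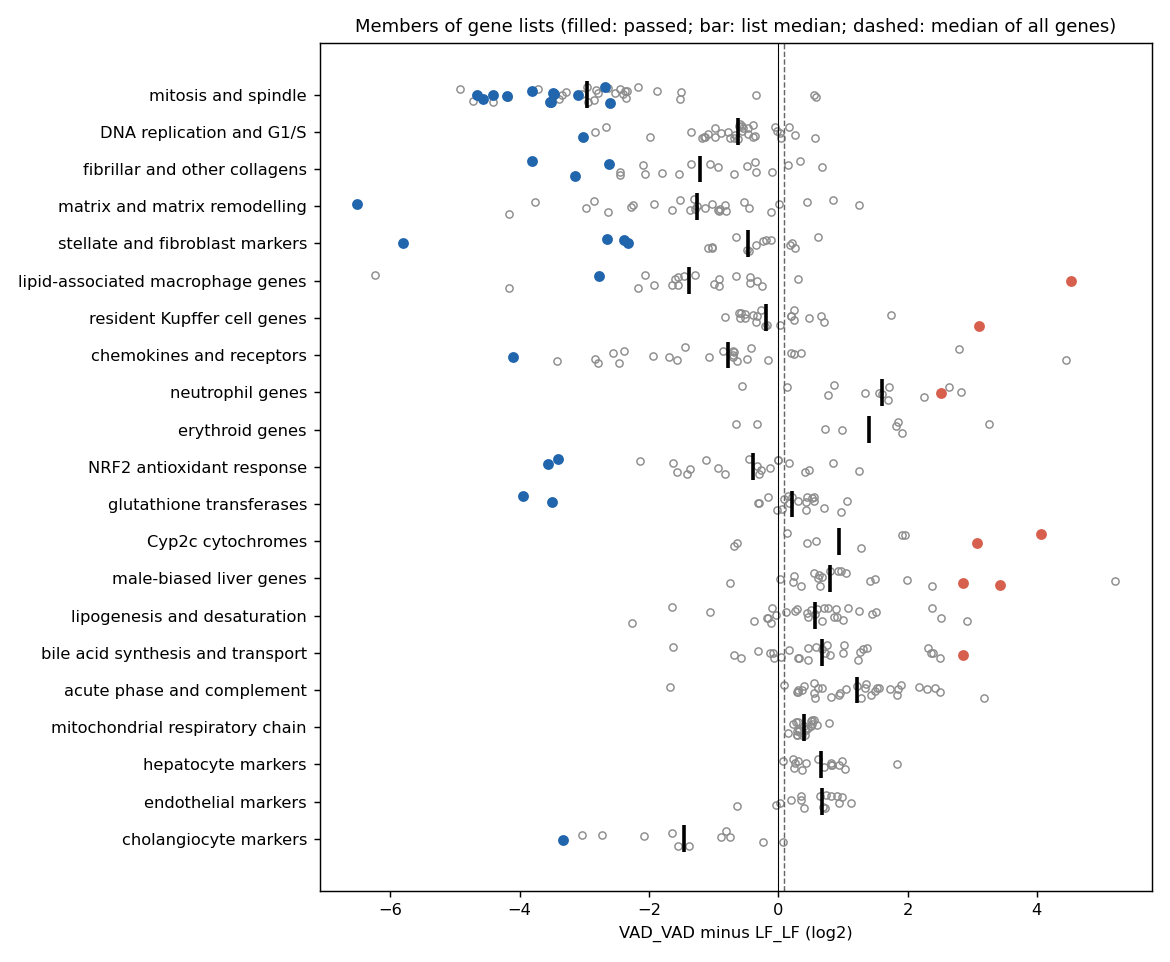
Each point is a gene of the list named at the left, placed by its deficient minus sufficient difference (log2); filled points passed, blue lower and red higher, the black bar is the list median and the dashed line the median of all genes, 0.09. Mitosis and spindle genes lie mostly to the left, with a median of −2.97, and neutrophil genes mostly to the right, with a median of 1.61.

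Macrophage genes were listed by type. Of 22 genes of lipid-associated macrophages, a state described in fatty and injured tissue, 1 rose and 1 fell, 20 differences were negative and the median was −1.38; without the LF_HF group 1 rose and 11 fell. Trem2, a lipid receptor that defines this state, read 3.06 and 3.08 on the sufficient arrays and −0.06 and 0.66 on the deficient arrays, and fell by 2.77 (SE 0.350, adjusted p = 0.0270, or 0.0933 with the mean over probes). The riser was Fabp5, described above. Gpnmb, another defining gene, read 0.38 and 0.60 against −4.12 and −7.37 and did not pass (adjusted p = 0.151, or 0.0171 without the LF_HF group), its deficient arrays lying far apart.

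Genes of resident Kupffer cells, the liver's own macrophages, gave a median nearer 0. Of 22, 1 rose and 0 fell, and the median was −0.19. Cd163, a haemoglobin scavenger receptor, was the 1 that rose, from −2.47 and −2.60 to 0.93 and 0.22 (difference 3.11, SE 0.469, adjusted p = 0.0439, or 0.0690 with the slide as a block, 0.0987 with quantile scaling and 0.0640 with the mean over probes). Its BD_HF arrays, at 0.31 and 0.52, were as high as the deficient ones. Clec4f, a specific Kupffer marker, read 3.42 and 3.27 against 3.53 and 4.10 (difference 0.47, adjusted p = 0.696).

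Of 26 chemokines and their receptors, 1 fell and 25 did not pass, with a median of −0.78, or −0.45 with normexp correction; without the LF_HF group 1 rose and 10 fell. Cxcl14, a chemokine of epithelium and liver, read 0.92 and 0.93 on the sufficient arrays and −3.26 and −3.10 on the deficient arrays. It fell by 4.11, or 17.2-fold (SE 0.301, adjusted p = 0.0152), and BD_HF lay between the groups at −1.52 and −1.23. Ccl2, which recruits monocytes, read 0.27 and −0.07 against −2.30 and −2.42 (adjusted p = 0.360, or 0.00442 without the LF_HF group).

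Ligands of the activating natural killer receptor NKG2D, which mark stressed cells, gave 2 falls among the 3 tested. Raet1a read 1.89 and 1.99 on the sufficient arrays and −3.52 and −4.70 on the deficient arrays, 1 of them above background, and fell by 6.05, or 66.2-fold (SE 0.511, adjusted p = 0.0152). Raet1e read 0.77 and 1.06 and was below background on both deficient arrays, a fall of at least 65.7-fold (adjusted p = 0.0168). BD_HF lay between the groups for both, with Raet1a at −1.28 and −0.86 and Raet1e at −3.48 and −3.23. Members of this family are near-identical, so the one named is uncertain.

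Detoxification genes gave 4 falls within lists that were otherwise not called. Gsta1 read 5.24 and 5.30 against 1.32 and 2.23 and fell by 3.49 (SE 0.418, adjusted p = 0.0346, without the outlier spot of LF_HF replicate 1), and Gsta2 fell by 3.95 (SE 0.487, adjusted p = 0.0261, or 0.0529 with quantile scaling); both encode alpha class transferases, which are alike enough to share signal. Of the 21 transferases tested these 2 fell, and the median was 0.22, or −0.05 with quantile scaling. Of 22 targets of NRF2, the factor that answers oxidative stress, 2 fell and the median was −0.39. Cbr3, a carbonyl reductase, read 3.25 and 3.32 against −0.49 and −0.06 and fell by 3.56 (SE 0.307, adjusted p = 0.0152, or 0.0727 with quantile scaling). Slc7a11, the cystine importer, fell by at least 3.27-fold (adjusted p = 0.0435, or 0.0690 with the slide as a block, 0.176 with quantile scaling, 0.0640 with the mean over probes and 0.698 with normexp correction). Slc7a11 passed the signal filter only through the sufficient group, so its p-values are descriptions, and it was not tested with the stricter filter. Nqo1, the classical NRF2 target, read −0.43 and −0.11 against −1.95 and −1.41 (adjusted p = 0.224). BD_HF was near the deficient level for these genes, with Gsta1 at 1.86 and 2.33 and Cbr3 at −0.92 and −0.88.

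The remaining large falls were spread over single genes. Ly6d, a surface protein seen in stressed and duct-like liver cells, read 5.52 and 6.14 against 0.16 and 1.24 and fell by 5.13 (SE 0.463, adjusted p = 0.0168, without the outlier spot of LF_HF replicate 1). Ntrk2, a neurotrophin receptor, read 2.26 and 2.34 against −3.72 and −2.02 and fell by 5.17 (SE 0.674, adjusted p = 0.0321, or 0.0560 with the slide as a block). Ubd, a ubiquitin-like modifier induced by inflammation, fell by 4.59, and Wfdc3, a whey acidic protein, by 4.63 (adjusted p = 0.0152, or 0.0717 with quantile scaling). Esm1, a secreted endothelial proteoglycan, fell by 4.34 with deficient arrays 1.88 apart (adjusted p = 0.0499, or 0.0845 with the slide as a block, 0.0689 with quantile scaling and 0.0765 with the mean over probes), also without LF_HF replicate 1. Cidea, a lipid droplet protein, was the 1 of 19 lipid droplet and lipolysis genes to fall, from 0.02 and −0.04 to −3.73 and −3.78 (adjusted p = 0.0499, or 0.0762 with the slide as a block and 0.0718 with the mean over probes).

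Among the genes that rose, the cytochromes of the Cyp2c family, which metabolise drugs and fatty acids, gave 2 of 10 tested, with a list median of 0.94. Cyp2c54 read −4.68 and −3.96 on the sufficient arrays and −0.16 and −0.36 on the deficient arrays and rose by 4.06, or 16.7-fold (SE 0.384, adjusted p = 0.0152). Cyp2c37 read 0.40 and 0.13 against 3.59 and 3.09 and rose by 3.07 (SE 0.457, adjusted p = 0.0435, or 0.0642 with the slide as a block). Both were higher still in BD_HF, at 1.72 and 2.18 for Cyp2c54 and 5.39 and 5.81 for Cyp2c37, so the deficient arrays lay between the groups. Family members are near-identical, and signal may be shared between their probes.

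Male-biased liver genes, set by the pulsatile growth hormone of males, gave 2 of 21, with 20 differences positive and a median of 0.80, or 0.64 with quantile scaling. Susd4, a complement regulator, read −3.07 and −2.34 against 0.75 and 0.71 and rose by 3.43, or 10.8-fold (SE 0.421, adjusted p = 0.0261). Slco1a1, an organic anion and bile acid importer, read −0.43 and −0.91 against 1.96 and 2.42 and rose by 2.86 (SE 0.416, adjusted p = 0.0427, or 0.0570 with the slide as a block). Hsd3b5, a steroid dehydrogenase of male liver, read −2.47 and −2.49 against 1.13 and 4.32 and did not pass (adjusted p = 0.0639); its deficient arrays lay 3.19 apart, and BD_HF read 5.47 and 5.43. Of the 20 female-biased genes 1 fell, Ntrk2, and the median was 0.06, or −0.07 with normexp correction and quantile scaling.

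Rgs16, a regulator of G protein signalling that follows feeding and carbohydrate intake in liver, read −0.90 and −0.04 on the sufficient arrays and 4.32 and 4.52 on the deficient arrays. It rose by 4.89, or 29.6-fold (SE 0.542, adjusted p = 0.0177), to the level of BD_HF at 4.74 and 5.33. It was the 1 of 30 genes of glucose metabolism and fasting signals to pass; the median of that list was 0.53. Acpp, a prostate-type acid phosphatase, read −4.48 and −4.79 against 0.89 and −0.32 and rose by 4.92, or 30.3-fold (SE 0.543, adjusted p = 0.0177), with BD_HF lower than the deficient arrays at −3.30 and −2.16. Hsbp1l1, a relative of a heat shock factor binding protein, read −1.99 and −2.02 against 1.09 and 0.77 and rose by 2.94 (adjusted p = 0.0369, or 0.0523 with the slide as a block and 0.0505 with quantile scaling). Il6ra, the interleukin-6 receptor, read −1.995 and −2.03 against 0.70 and 0.46 and rose by 2.60 (adjusted p = 0.0344, or 0.0515 with the slide as a block and 0.0637 with quantile scaling).

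Neutrophil genes had a median of 1.61, with 12 of 13 differences positive and 1 gene that rose; 3 rose without the LF_HF group, and the median was 0.69 with normexp correction. S100a8, a subunit of calprotectin, read −0.68 and −0.84 on the sufficient arrays and 1.66 and 1.87 on the deficient arrays. It rose by 2.52, or 5.75-fold (adjusted p = 0.0499, or 0.0591 with the slide as a block, 0.241 with quantile scaling and 0.0695 with the mean over probes), and BD_HF was lower than both groups at −2.16 and −1.50. S100a9, its partner, read 1.94 and 1.91 against 3.96 and 4.41 (difference 2.26, adjusted p = 0.159, or 0.00739 without the LF_HF group). The summed signal of the list was 6.11 and 5.89 times the 75th percentile on the sufficient arrays and 34.8 and 26.9 on the deficient arrays.

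Red cell genes also had a positive median. Of the 8 measured, 6 differences were positive, none passed and the median was 1.41, or 0.57 with normexp correction, and the summed signal was 183 and 189 on the sufficient arrays and 458 and 814 on the deficient arrays. Hba-a1, an alpha globin, read 5.84 and 5.98 against 7.39 and 8.27 (difference 1.92, adjusted p = 0.0993). The part of blood held in the tissue in the values of S100a8 and S100a9 was not tested.

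The deficient arrays differed from each other in genes of several kinds, inflammation genes among them. Of all genes tested, 335 lay more than 2 apart between the deficient arrays, against 36 between the sufficient arrays. The widest gaps among list members also held Cidec, an adipocyte marker (4.90), Lyve1, an endothelial marker (4.36), and Cyp2b10, a xenobiotic gene (3.64). The share of inflammation genes among the 335 was not counted. Of 33 acute phase and complement genes, which hepatocytes make in answer to inflammation, 32 differences were positive, none passed and the median was 1.22, or 0.77 with normexp correction and quantile scaling. Within slide 1 the median was 1.27 and within slide 2 it was 0.62. Saa1, serum amyloid A, read 5.53 and 5.91 on the sufficient arrays and 10.24 and 5.79 on the deficient arrays. Saa2 read 6.53 and 6.57 against 10.34 and 6.21, so only deficient replicate 1 was high for both. Mt1, a metallothionein, and Lcn2, lipocalin 2, were picked after their values were seen and parted in the same way, Mt1 with 10.30 and 3.14 and Lcn2 with 3.85 and −1.63 on the deficient arrays. S100a8 and Cyp26a1 did not part in this way.

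**Figure D5:**
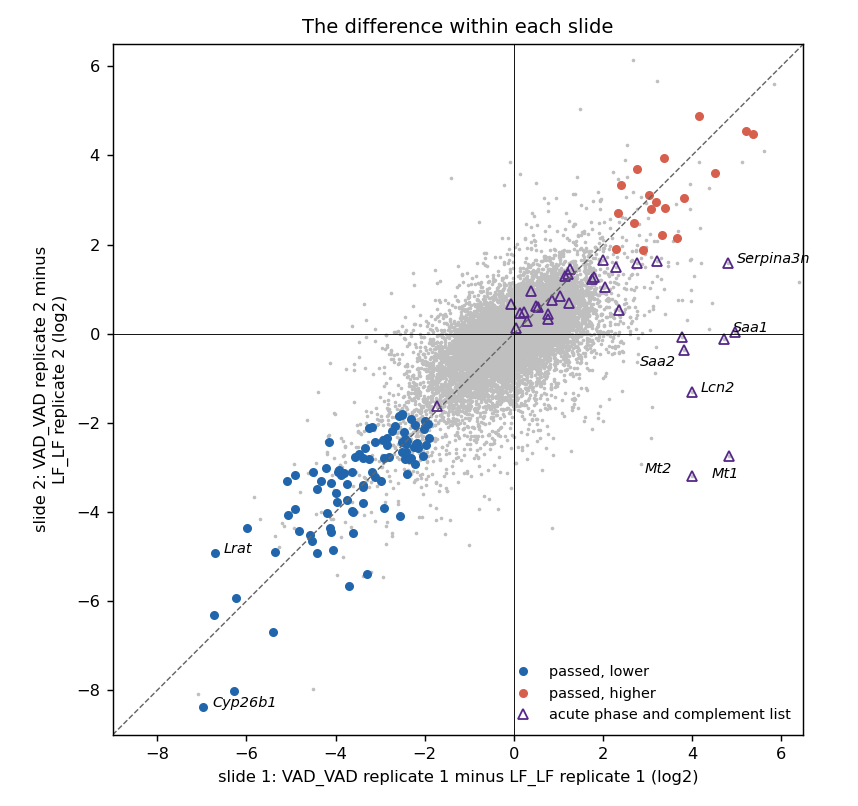
Each point is a gene, with the deficient minus sufficient difference within slide 1 (replicate 1 of each group) on the horizontal axis and within slide 2 (replicate 2) on the vertical axis, both log2; blue and red mark the genes that passed, triangles the acute phase and complement list, and the dashed line equal differences. The 109 genes that passed have the same sign within both slides, and Saa1, Saa2, Lcn2 and the metallothioneins lie to the right of it, high within slide 1 only.

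Lists for the main functions of hepatocytes gave no or few calls. None of 31 genes of lipogenesis and desaturation passed (median 0.57), none of 25 of cholesterol synthesis (0.73), none of 37 of fatty acid oxidation and ketogenesis (0.48, or 0.09 with quantile scaling), and 1 of 29 of bile acid synthesis and transport, Slco1a1 (0.67). The 16 hepatocyte markers all read higher in the deficient group and none passed, with a median of 0.66, or 0.20 with quantile scaling, and Alb turned sign with that scaling. The 22 genes of the mitochondrial respiratory chain did the same with a median of 0.40, which became −0.02 with quantile scaling. No list member passed among endothelial markers (16 genes, median 0.67), interferon response genes (22, −0.19), MHC class II and lymphocyte genes (23, −0.46) or chaperones and the unfolded protein response (25, 0.09, or −0.20 with quantile scaling).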

How the data were processed

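Liver RNA was measured on 8 1-colour Agilent arrays in 4 groups of 2. Per the file headers, the deposited intensity values came from Agilent Feature Extraction 10.7.3.1, background-subtracted per spot, with probe positions on mm9. From the deposited processed signal, log2 levels were computed and each array's 75th percentile was subtracted; the deposited series table, an intensity per probe, served as an alternative. Control and outlier spots were left out, so that 16163 of 17259 genes had a value on every array. A probe was kept where both arrays of some group were well above background (26224 probes), and each gene was read from its brightest probe on average; 82.49% of probes matched a RefSeq symbol by accession or name.

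The comparisons used lmFit and eBayes of limma 3.58.1 (R 4.3.3) over all 8 arrays, with Benjamini-Hochberg adjustment over all genes and an adjusted p under 0.05; the fit was tested on simulated data. Alternatives were normexp background correction (offset 50), quantile scaling, the series table, no or a stricter filter, values below background at the array's bound, the mean over a gene's probes, trended robust variances, replicate and slide blocks, fewer groups, and each array left out in turn. The comparison and the gene lists were chosen with earlier results of these data known. Genes were named by rule: members of the retinoid lists, called members and the first 2 measured members of other lists, and the 15 largest called changes each way. Scripts used Python 3.11.15. Some results on single genes are not reported here.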

Additional observations from a re-analysis of the deposited data

How the results depend on the processing

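With 2 arrays a group, the count of calls moved, and so did the sizes of the differences. With normexp correction the median of the mitosis and spindle genes went from −2.97 to −0.99. Over the alternatives the difference of Bmp8b ranged from −6.17 to −1.43 and that of Fabp5 from 0.78 to 4.87. The 18 higher and 91 lower genes became 102 and 276 with normexp correction (26.98% of calls higher, against 16.5%), 89 and 304 with normexp and quantile scaling, 36 and 100 with the stricter filter, 30 and 111 with values at their bound, 15 and 52 with the mean over probes, 101 and 198 with trended robust variances (33.8% of calls higher), 86 and 408 in the 4 arrays alone, 231 and 681 without the LF_HF group, and 0 and 0 with no filter on dim probes (1478 genes at an unadjusted p under 0.05). The series table gave 18 and 90, with 108 of the 109 genes called again; quantile scaling gave 15 and 90, with only 41 called again. Leaving out 1 array at a time gave 0 to 231 higher and 0 to 681 lower. The replicate differences of the 6 pairs of groups correlated at 0.0983 to 0.305 (0.221 for LF_LF and VAD_VAD), and the numbers coincide with the slides; the replicate block, which is also the slide block, gave 11 higher and 46 lower. Against BD_HF the 0 calls became 51 with normexp correction and 105 without the LF_HF group, 0 to 105 with 1 array left out, and 0 with the replicate block.

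Quantile scaling turned the sign of Rbp4 to −0.17 (−0.12 after normexp) and of Alb to −0.078 (−0.053 after normexp). Leaving out 1 array gave −0.34 to 0.18 for Adh1, −0.29 to 0.22 for Aldh1a1, −0.64 to 0.30 for Dhrs3, −1.39 to 4.09 for Lcn2, −2.53 to 4.63 for Mt1 and −0.34 to 3.79 for Saa2, the lower ends of the last 3 without VAD_VAD replicate 1. No other named gene changed sign under these alternatives.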
